A study of Mus musculus with 2 samples.

Results

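Genes of the major histocompatibility complex (MHC) class II pathway, 10 of the 32285 genes counted, were followed across the cells of 2 mouse liver libraries. These were chosen by symbol: the class II chains H2-Aa, H2-Ab1 and H2-Eb1, the invariant chain Cd74, the peptide-loading genes H2-DMa, H2-DMb1 and H2-DMb2, the loading modulators H2-Oa and H2-Ob, and the transactivator Ciita. The rule itself uses no measured value, although it was set with earlier results of these data known. In the cells sorted here by marker genes, the pathway was high in conventional dendritic-like cells, lower in B-like cells and lower again in Kupffer-like cells. Endothelial-like and hepatocyte-like cells carried it at or near the level found in T-like cells.

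The study deleted CEBPA, a transcription factor of liver cells, from hepatocytes of male mice and fed them a 40% HFCFD, a diet high in fructose, fat and cholesterol, for 2 weeks. The group labelled Cebp KO held 1 sample and the group labelled Cebp WT held 1 sample, on the same diet. The study's methods make the knockout by crossing Cebpa fl/fl mice, which it also used as the wild type, with a Cre recombinase under the albumin promoter, which is active in hepatocytes, on a C57BL/6N background. They describe a constant and a tamoxifen-inducible form of this Cre, and the label does not say which was used. The study's text names the constant form for other 2-week HFCFD mice. The age and the number of animals behind each sample are not stated in the labels or the main methods, and the supplemental methods were not used here. Liver cells were freed by perfusion and digestion, enriched on 35% Percoll and captured with the 10x 3′ v3.1 chemistry. The deposited matrix joins both libraries, which are told apart only by the suffix 1 or 2 of the cell barcode, and no label says which genotype each suffix is. The libraries are therefore named by suffix, they are not compared as genotypes, and no test was run.

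MHC class II molecules are pairs of an alpha and a beta chain that show peptides, taken up from outside the cell and cut in lysosome-like compartments, to CD4 T cells. Cd74 holds the new pair and fills its groove until the peptide exchange factor DM helps a peptide take its place, and DO binds DM and restrains it. CIITA is the coactivator that switches these genes on together, working with factors that sit on their shared promoter boxes. Dendritic cells, B cells and macrophages are known for carrying the pathway, and Kupffer cells are the resident macrophages of the liver.

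The promoter boxes of the pathway are printed here because they are the sites through which Ciita is known to act on these genes. The windows come from the RefSeq promoter table of build GRCm38.p6, 300 bases per gene start, which held 7 of the 10 members, all on chromosome 17. H2-Ab1, Cd74 and Ciita had no entry. The motifs were searched on both strands. Each window runs 5′ to 3′ on the strand of its gene, and capitals mark exact copies of GATTGG (the letters of a Y box, the NF-Y site), GCAAC (the core of an X box, bound by RFX) and TGATGC, letters that lie ahead of the Y box in H2-Eb1, H2-Ob, H2-DMb1 and H2-DMb2.
H2-Aa, chr17:34287861-34287912, minus strand: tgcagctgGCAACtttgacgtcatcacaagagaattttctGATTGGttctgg
H2-Eb1, chr17:34305767-34305818, plus strand: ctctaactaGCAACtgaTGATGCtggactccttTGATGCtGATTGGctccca
H2-Ob, chr17:34238807-34238858, plus strand: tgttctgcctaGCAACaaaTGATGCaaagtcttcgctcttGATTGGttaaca
H2-Oa, chr17:34092295-34092346, plus strand: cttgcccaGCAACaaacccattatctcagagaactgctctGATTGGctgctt
H2-DMb2, chr17:34145118-34145169, plus strand: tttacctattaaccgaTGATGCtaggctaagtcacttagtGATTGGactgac
H2-DMb1, chr17:34153105-34153134, plus strand: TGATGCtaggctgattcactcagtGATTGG

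In these windows GATTGG began 44 bases before the RefSeq start of H2-Oa, 49 before that of H2-Aa, 58 before that of H2-Ob, 60 before that of H2-Eb1, 62 before that of H2-DMb1 and 91 before that of H2-DMb2. GENCODE annotates longer transcripts of both DM beta genes, so these windows lie within their GENCODE spans, and all 30 bases printed for H2-DMb1 and 7 of those for H2-Oa are exonic in a GENCODE transcript. The GCAAC letters began 29 to 32 bases ahead of it in H2-Aa, H2-Eb1, H2-Ob and H2-Oa. In H2-DMb1 and H2-DMb2, whose windows hold no X box core letters, TGATGC began 24 bases ahead of it. H2-DMa has 2 starts in the table: the window of the first held GCAAC on the other strand and no GATTGG, and that of the second held GATTGG alone. Of all 32851 promoter windows, 16.1% held the Y box letters on either strand, 35.2% the X box core letters and 10.9% TGATGC. The X box core letters lay 28 to 33 bases before the Y box letters in 0.125% of all windows, and TGATGC lay 20 to 28 bases before them on the gene's strand in 0.0304%. These spacings were set after seeing the members, and a match of letters is not a binding site.

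The levels came from 17313 barcodes with suffix 1 and 15003 with suffix 2, of which 11617 and 6088 cells held at least 500 unique molecular identifiers (UMIs), at least 200 genes and at most 25% mitochondrial UMIs. Kept cells had a median depth of 1424 and 2310 UMIs, and 81 barcode sequences occurred in both libraries. The library with suffix 2 stood apart in its mitochondrial share, with a median of 41.3% over all its barcodes against 4.07% with suffix 1, so that 8913 and 5681 barcodes were over the limit. Classes are named after marker lists that hold no member: at least 3 markers of a class, at most 1 excluding marker of any other and own markers at 300 CPM (UMIs per 1000000) or more. For hepatocyte-like cells the rule was at least 10% of UMIs in hepatocyte markers and at most 1 marker of any other list. Class sizes with suffix 1 and suffix 2 were 184 and 153 B-like, 34 and 43 conventional dendritic-like, 227 and 396 Kupffer-like, 107 and 117 endothelial-like, and 6095 and 3008 hepatocyte-like cells. The leading genes of these classes included Cd79a and Ms4a1 for B-like, Xcr1 for conventional dendritic-like, Clec4f and Vsig4 for Kupffer-like and Kdr and Stab2 for endothelial-like cells. Of the kept cells, 34.7% and 26% passed no gate or more than 1 and were left unnamed. A level is the summed UMIs of a gene in a class of a library per 1000000 UMIs, with an exact Poisson 95% interval that covers counting error only and says nothing about the spread between mice.

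The 4 most abundant members, H2-Aa, H2-Ab1, H2-Eb1 and Cd74, gave the class order. Their summed level in conventional dendritic-like cells was 30376 CPM (29832 to 30927) in the library with suffix 1, against 25922 CPM (25485 to 26364) in that with suffix 2. In B-like cells it was 11384 CPM (11141 to 11631) and 13363 CPM (13052 to 13681). In Kupffer-like cells it was 2903 CPM (2827 to 2981) and 4134 CPM (4057 to 4211). These 3 classes kept the same order in both libraries, and no interval of any overlapped that of another class. The hepatocyte-like level was 82.9 CPM (77.1 to 88.9) and 92.1 CPM (84.8 to 99.8). The endothelial-like level was 52.1 CPM (34.9 to 74.8) and 48.2 CPM (31.5 to 70.6). T-like cells, mouse T cells being known to make little class II of their own, stood at 52.1 CPM (44 to 61.3) and 52.3 CPM (43.4 to 62.6). The endothelial-like level thus lay within the counting interval of the T-like level in each library, while the hepatocyte-like level lay above it. These levels depended on the gate. With cells carrying markers of another class kept, the Kupffer-like level was 1769 and 3218 CPM. The endothelial-like level was then 1093 and 1307 CPM, against 640.5 and 1212 CPM in T-like cells under that gate. With at most 2 such markers the endothelial-like level was 128.8 CPM with suffix 2, against 272 CPM in T-like cells. Hepatocyte-like cells held 73.4 and 85.6 CPM under either of these gates, below T-like cells of the same gate.

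Further antigen-presenting classes fell between these. Plasmacytoid dendritic-like cells, the type I interferon producers, carried 5664 CPM (102 cells) and 6902 CPM (88 cells). Monocyte-like cells carried 6588 CPM (33 cells) and 8144 CPM (24 cells). Macrophage-like cells, gated on C1q genes, Csf1r and other macrophage markers with few Kupffer markers, carried 25817 CPM (19 cells) and 17631 CPM (22 cells), far above Kupffer-like cells of the same library. Plasma-like cells, antibody-secreting descendants of B cells, were at 2002 CPM (12 cells) and 1587 CPM (19 cells). NK-like and neutrophil-like cells held between 36.4 and 79 CPM, and their intervals overlapped that of T-like cells. Cholangiocyte-like cells (20 and 15 cells) held 284 CPM (214 to 370) and 238 CPM (162.5 to 335), above the T-like intervals.

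**Figure D1:**
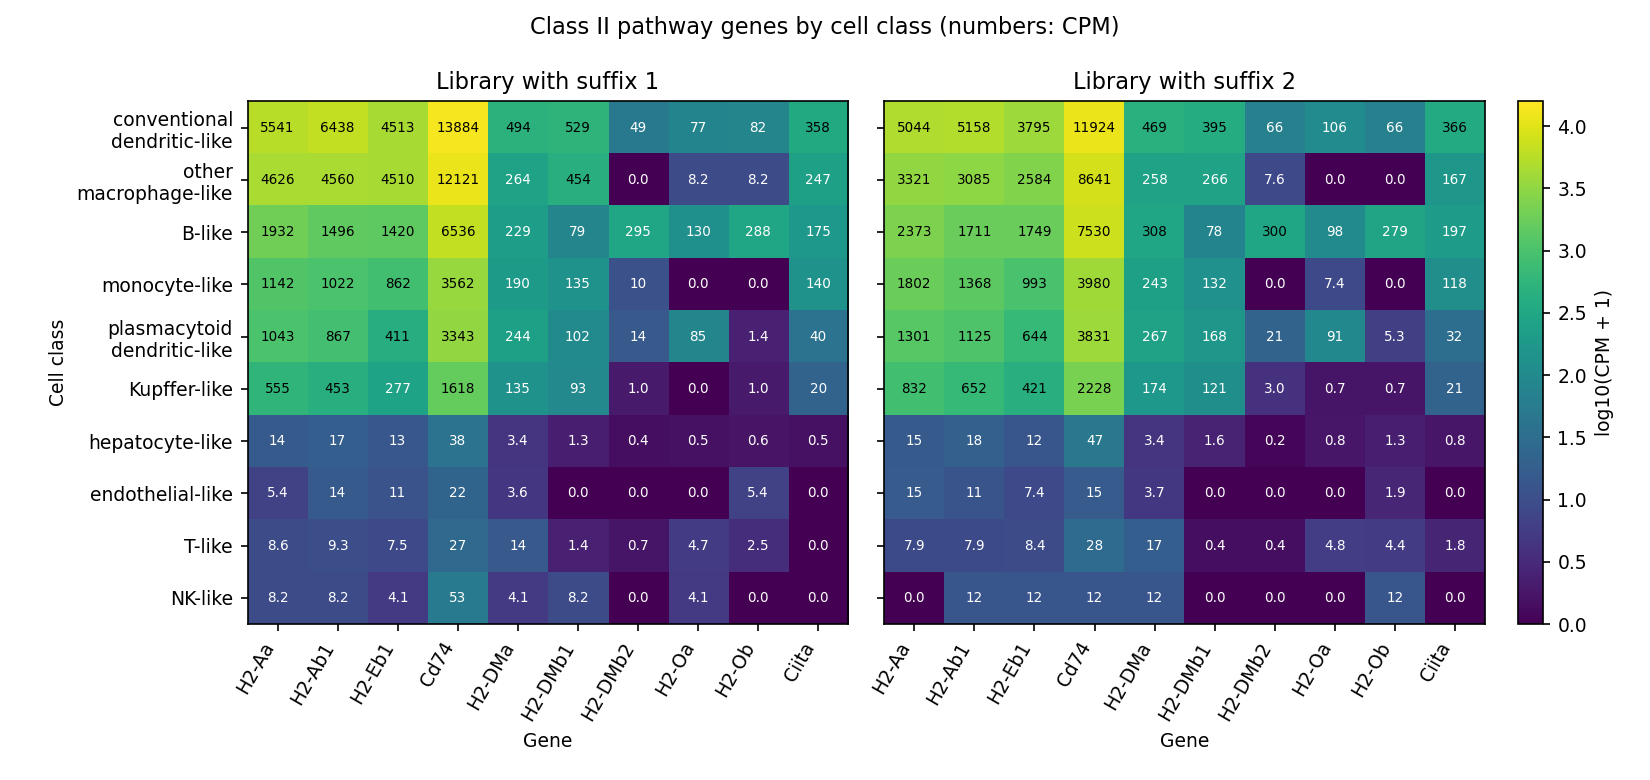
Level of the 10 members (columns) in 10 cell classes (rows) for the library with suffix 1 (left) and suffix 2 (right), as log10(CPM + 1) in colour with the CPM printed in each cell. Conventional dendritic-like cells are at the top for H2-Aa, H2-Ab1, H2-Eb1 and Cd74, and the bottom 4 classes stay at or below 53.4 CPM for every member.

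The order over summed UMIs also held for the typical cell of most classes. The median cell carried 28500 and 26525 CPM of the 4 genes among conventional dendritic-like cells, 12155 and 13594 CPM among B-like cells and 2115 and 3011 CPM among Kupffer-like cells. The middle of the Kupffer-like cells was broad, from a lower quartile of 1048 CPM to an upper quartile of 3638 CPM with suffix 1 and from 1587 to 5011 CPM with suffix 2. Monocyte-like cells were split: the median cell held 663 and 866 CPM, and the 90% point was 18834 and 32518 CPM. No UMI of the 4 genes was found in 27.3% and 33.3% of monocyte-like cells, and 1 cell gave 23.7% and 26.7% of the class's UMIs. In T-like, endothelial-like and hepatocyte-like cells the median cell held none.

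**Figure D2:**
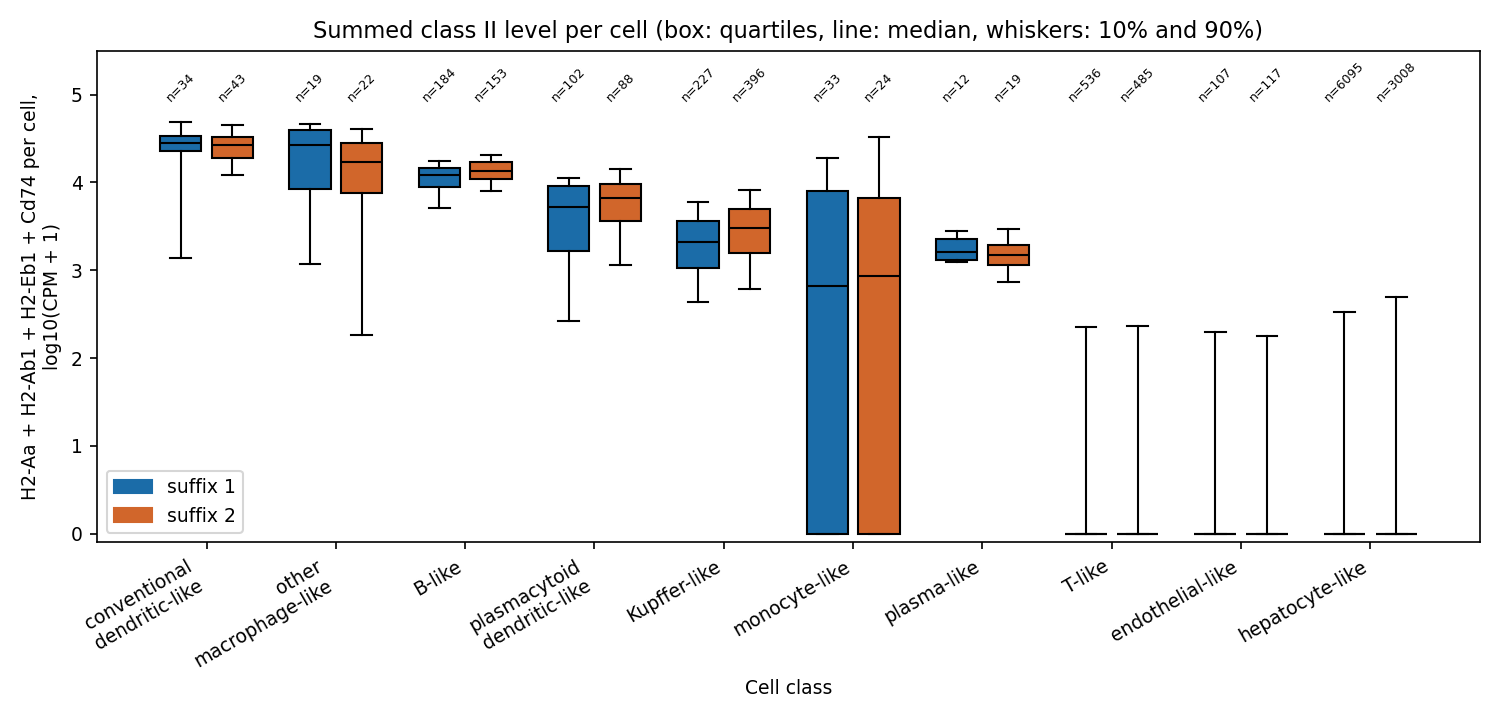
Summed level of H2-Aa, H2-Ab1, H2-Eb1 and Cd74 in single cells as log10(CPM + 1), by cell class and library (colour). Boxes span the quartiles, lines mark the median and whiskers the 10% and 90% points, so that monocyte-like boxes reach from 0 to 8017 CPM (suffix 1) while B-like boxes stay between 8968 and 17047 CPM over both libraries.

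Depth differed between classes, so the share of cells with a UMI was also taken after thinning each cell to 1000 UMIs. After thinning, a UMI of any of the 4 genes was found in 98.9% and 100% of B-like, 94.1% and 93% of conventional dendritic-like and 81.3% and 85.2% of Kupffer-like cells. Before thinning these were 99.5% and 100%, 100% and 97.7%, and 97.4% and 97.2%. In T-like cells the thinned share was 4.48% and 3.51%, against 21.6% and 19.6% before. Median depth was 3466 and 2981 UMIs in B-like, 8172 and 6206 in Kupffer-like, 4580 and 4215 in T-like and 987 and 1109 in hepatocyte-like cells. Endothelial-like cells, at 5.61% and 2.56%, had counting intervals that held the T-like share, and hepatocyte-like cells stood at 7.63% and 7.74%. Thinning left out cells under 1000 UMIs, which were 3146 and 1328 hepatocyte-like, 2 and 5 Kupffer-like and no B-like, conventional dendritic-like, endothelial-like or T-like cells.

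The alpha and beta chains of the A and E molecules are the peptide-holding part of the pathway. H2-Aa, the A alpha chain, stood at 5541 and 5044 CPM in conventional dendritic-like, 1932 and 2373 CPM in B-like and 555 and 832 CPM in Kupffer-like cells. H2-Ab1, its beta partner, stood at 6438 and 5158 CPM, 1496 and 1711 CPM, and 453 and 652 CPM in the same classes. H2-Eb1, the E beta chain, stood at 4513 and 3795 CPM, 1420 and 1749 CPM, and 277 and 421 CPM. Each chain thus gave the same class order in both libraries. The share of H2-Eb1 among the UMIs of the 3 chains was 29.3% (27.8 to 30.8) and 30% (28.4 to 31.7) in B-like cells. It was 21.6% (20 to 23.2) and 22.1% (21 to 23.3) in Kupffer-like and 17.7% (15.9 to 19.6) and 21% (19.1 to 23) in plasmacytoid dendritic-like cells, below the B-like share in each library by intervals that do not overlap. The gene for the E alpha chain was not analysed here.

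Cd74, the invariant chain, was the member with the most UMIs in these 5 antigen-presenting classes. It reached 13884 and 11924 CPM in conventional dendritic-like, 6536 and 7530 CPM in B-like, 3343 and 3831 CPM in plasmacytoid dendritic-like, 1618 and 2228 CPM in Kupffer-like and 12121 and 8641 CPM in other macrophage-like cells. It made up 45.7% and 46% of the UMIs of the 4 genes in conventional dendritic-like cells and 57.4% and 56.3% in B-like cells, and neither library's intervals overlapped between these classes. Plasma-like cells kept 60.7% and 74% of the 4 genes' UMIs in Cd74, with H2-Aa down at 122 and 68 CPM.

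DM, the peptide exchange factor, is an H2-DMa alpha chain with a beta chain from H2-DMb1 or H2-DMb2, and the counted share of each beta gene differed by class. H2-DMa stood at 494 and 469 CPM in conventional dendritic-like, 229 and 308 CPM in B-like, 244 and 267 CPM in plasmacytoid dendritic-like and 135 and 174 CPM in Kupffer-like cells. H2-DMb1 stood at 529 and 395 CPM in conventional dendritic-like cells and 92.9 and 121 CPM in Kupffer-like cells, against 79.2 and 78.5 CPM in B-like cells. H2-DMb2 went the other way, at 295 and 300.5 CPM in B-like, 48.6 and 65.6 CPM in conventional dendritic-like and 1.05 and 2.98 CPM in Kupffer-like cells. Of the UMIs of both beta genes, H2-DMb2 held 78.8% (73.5 to 83.5) and 79.3% (73 to 84.7) in B-like cells. Its share was 8.41% (5.14 to 12.8) and 14.2% (10.1 to 19.3) in conventional dendritic-like, 12.2% (6.01 to 21.3) and 11.1% (5.88 to 18.6) in plasmacytoid dendritic-like, and 1.12% (0.136 to 3.98) and 2.41% (1.05 to 4.69) in Kupffer-like cells. The B-like intervals stood clear of every other of these classes in both libraries.

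H2-DMb1 and H2-DMb2 are neighbouring copies on chromosome 17, at 34153072 to 34160230 and 34143307 to 34151555 in the GENCODE annotation of GRCm38. Their longest coding transcripts were 94.6% identical over 1219 aligned bases, and how reads that match both were assigned is not stated in the sources used here. The ends of the transcripts, where 3′ libraries read, were compared with each other. Of the 411 stretches of 90 bases in the last 500 bases of H2-DMb1, 0 occurred in the last 500 of H2-DMb2. Matches of that end to the rest of H2-DMb2 were not counted apart. Over the whole transcript 209 of 1315 such stretches were shared, so the split stays uncertain for reads that match both genes.

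DO, which restrains DM, pairs an H2-Oa alpha chain with an H2-Ob beta chain. H2-Oa stood at 130 CPM (105 to 159) and 97.6 CPM (72.7 to 128) in B-like, 76.7 and 106 CPM in conventional dendritic-like and 84.7 and 91.3 CPM in plasmacytoid dendritic-like cells. H2-Ob stood at 288 and 279 CPM in B-like and 81.8 and 65.6 CPM in conventional dendritic-like cells, but at 1.41 CPM (1 UMI, 0.0357 to 7.87) and 5.27 CPM (3 UMIs, 1.09 to 15.4) in plasmacytoid dendritic-like cells. Plasmacytoid dendritic-like cells thus held 60 and 52 UMIs of the alpha gene beside 1 and 3 of the beta gene, and the H2-Ob share of the pair was 1.64% (0.0415 to 8.8) and 5.45% (1.14 to 15.1). In B-like cells that share was 69% (63.4 to 74.1) and 74.1% (67.4 to 80.1). Kupffer-like cells held neither gene above the T-like level: 0 and 2 UMIs of H2-Oa and 2 and 2 of H2-Ob in 1905969 and 2686073 UMIs. With suffix 1 a count of 0 allows up to 1.57 CPM of H2-Oa. Macrophage-like cells with few Kupffer markers had 1 and 0 UMIs of H2-Oa and 1 and 0 of H2-Ob.

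DO made up 40.9% (37.4 to 44.5) and 35.4% (31.5 to 39.6) of all DO and DM UMIs in B-like cells. The share was 12.9% (10 to 16.2) and 15.6% (12.7 to 18.8) in conventional dendritic-like, 19.3% (15.1 to 24.1) and 17.5% (13.4 to 22.1) in plasmacytoid dendritic-like, and 0.456% (0.0552 to 1.64) and 0.498% (0.136 to 1.27) in Kupffer-like cells. B-like, dendritic-like and Kupffer-like cells therefore stood apart in this share in each library.

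**Figure D3:**
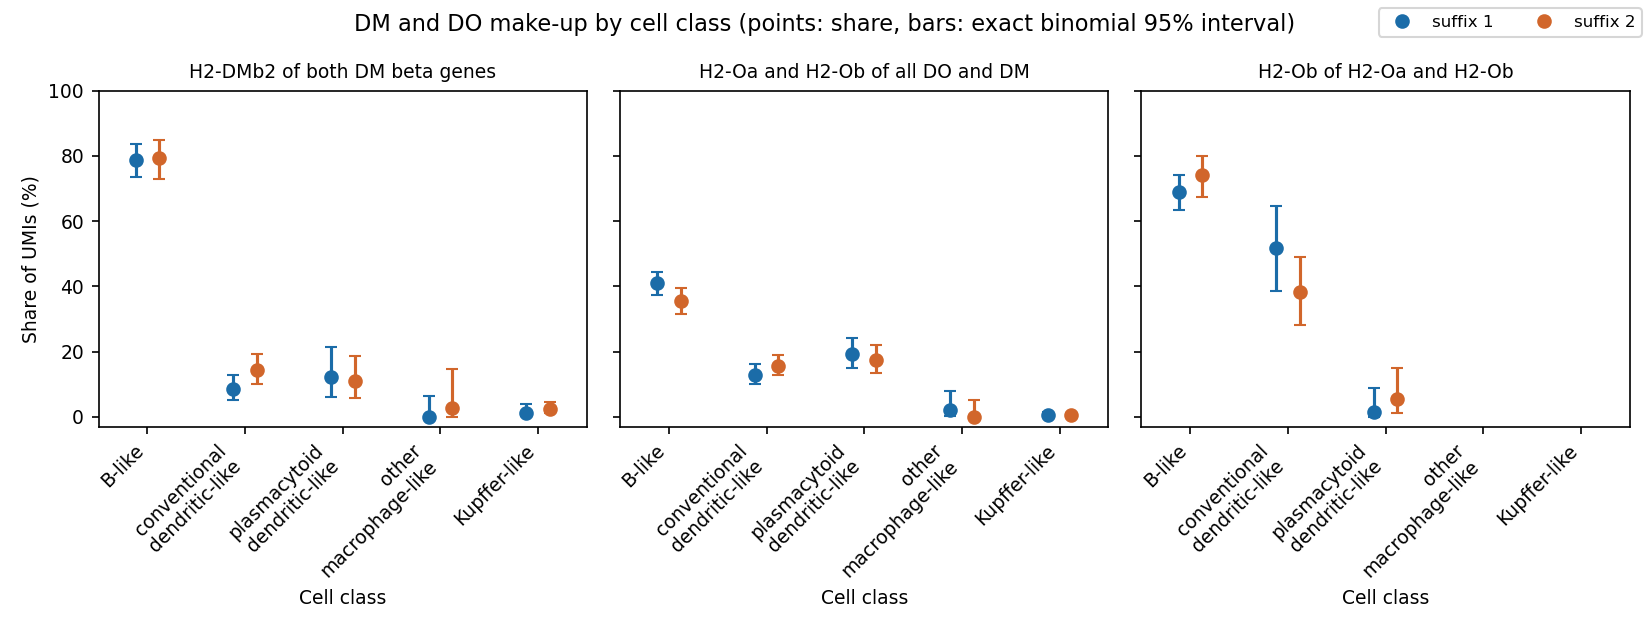
Share of UMIs in percent, by cell class and library (colour), for H2-DMb2 of both DM beta genes (left), DO of all DO and DM (middle) and H2-Ob of both DO genes (right). Points are shares and bars exact binomial 95% intervals, drawn only where the pair held at least 30 UMIs, and the B-like points of the left panel, 78.8% and 79.3%, stand above all others.

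Ciita, the coactivator of the pathway, gave the same order of conventional dendritic-like, B-like and Kupffer-like cells as the chains, at a far lower level. Its proportion to the chains varied between classes. Of the UMIs of Ciita and the 4 abundant genes, it made up 2.09% and 1.43% in monocyte-like but 0.693% and 0.456% in plasmacytoid dendritic-like cells. It stood at 358 CPM (301 to 422) and 366 CPM (316 to 422) in conventional dendritic-like cells and 175 CPM (146 to 208) and 197 CPM (161 to 239) in B-like cells. Macrophage-like cells with few Kupffer markers held 247 and 167 CPM and monocyte-like cells 140 and 118 CPM. Plasmacytoid dendritic-like cells held less, at 39.5 and 31.6 CPM, and Kupffer-like cells held 20.5 CPM (14.6 to 28) and 20.9 CPM (15.8 to 27.1). No Ciita UMI was found in the 107 and 117 endothelial-like cells, which allows up to 5.39 and 5.56 CPM. Plasma-like cells (12 and 19 cells) held 0 Ciita UMIs in each library, which allows up to 15.9 and 13.6 CPM. T-like cells held 0 and 4 UMIs.

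Counted against T-like cells of the same library, all 10 members were at least 2-fold higher in B-like cells with either suffix, where 11.8% (suffix 1) and 13.5% (suffix 2) of all genes tested passed that size. A gene was tested where it reached 10 CPM in either class, and 3 UMIs were added to each sum before the fold was taken. All 10 members also passed in conventional dendritic-like cells with either suffix, beside 19.4% and 18.9% of all genes. In plasmacytoid dendritic-like cells 9 of 9 members tested passed with either suffix, H2-Ob being too low, beside 17.4% and 18.9% of genes. In Kupffer-like cells 7 of 7 members tested passed with either suffix, beside 21.7% and 21.2% of genes. H2-DMb2, H2-Oa and H2-Ob were under 10 CPM there in both Kupffer-like and T-like cells and were not tested. With cells carrying markers of another class kept, the Kupffer-like count was 5 and 5, T-like cells then holding 640.5 and 1212 CPM of the 4 abundant genes. No member tested was at least 2-fold lower than in T-like cells in these 4 classes. In Kupffer-like cells the untested H2-Oa held 0 and 2 UMIs against 13 and 11 in T-like cells. That size was passed by 9.47% and 8.7% of genes in B-like, 9.17% and 10.1% in conventional dendritic-like, 10.9% and 10.3% in plasmacytoid dendritic-like and 15.7% and 17.5% in Kupffer-like cells. A member low in T-like cells passes this filter only where it is high in the other class, so the counts describe the members that could be tested. Only Cd74 and H2-DMa reached 10 CPM in T-like cells, so no other member could have passed as lower.

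Endothelial-like cells gave another picture. Of 4 members tested, 0 passed with suffix 1 and 1, H2-Aa, passed with suffix 2, where 27.4% and 29.4% of all genes did. H2-Aa rested there on 8 UMIs. In hepatocyte-like cells 0 of 5 passed with suffix 1 and 1 of 5, H2-Ab1, with suffix 2, beside 17.3% and 17.4% of genes. The hepatocyte-like count changed with the setting. It was 2 with suffix 1 at a mitochondrial limit of 10%, and 0 with suffix 2 at a minimum of 1000 UMIs per cell. With cells carrying markers of another class kept it was 0 with either suffix, and without the 5% of cells with the most UMIs 1 and 2. H2-DMa was at least 2-fold lower in hepatocyte-like than in T-like cells with either suffix, as were 52.4% and 52.9% of all genes, and no member was in endothelial-like cells, where 12.8% and 13.8% of genes were. With suffix 1 the endothelial-like count was 2 with a mitochondrial limit of 10% and 2 without the 5% of cells with the most UMIs. With suffix 2 it was 0 without those 5% of cells. With cells carrying markers of another class kept, the endothelial-like count was 1 with suffix 1 and 0 with suffix 2.

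Under the gate used, the class II level of hepatocyte-like cells differed with depth. Hepatocyte-like cells of at least 5000 UMIs held 32.5 CPM (25.9 to 40.2) in 115 cells with suffix 1 and 46.3 CPM (38.4 to 55.2) in 212 cells with suffix 2. Those under 5000 UMIs held 102 CPM (94.9 to 110) and 124 CPM (113 to 136). Per cell this was 0.739 and 0.575 UMIs of the 4 genes in deep cells and 0.115 and 0.167 UMIs in shallow cells, against 0.271 and 0.245 UMIs in T-like cells and 0.161 and 0.19 UMIs in neutrophil-like cells. Under this gate the CPM was therefore higher where a cell had fewer UMIs of its own. With no limit on markers of other classes, deep cells rich in hepatocyte markers held 51 CPM (46.2 to 56.1, 306 cells) with suffix 1. With suffix 2 they held 120 CPM (111 to 129, 390 cells), an interval that overlapped that of the shallow cells above. The part that free RNA has in these values was not tested. Ciita stood at 0.535 and 0.783 CPM over all hepatocyte-like cells, from 5 UMIs in each library.

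**Figure D4:**
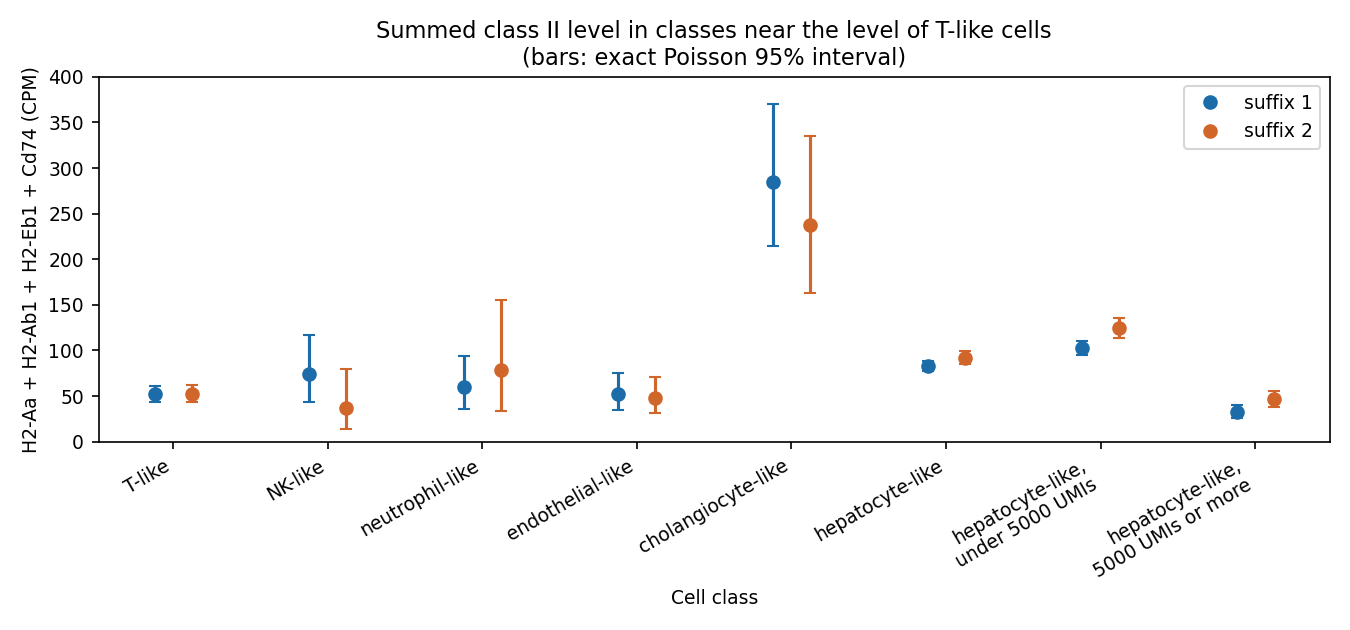
Summed level of H2-Aa, H2-Ab1, H2-Eb1 and Cd74 in CPM (linear axis) for low classes, by library (colour), with exact Poisson 95% intervals as bars. Endothelial-like points sit on the T-like level of about 52.1 CPM, deep hepatocyte-like cells at 32.5 and 46.3 CPM, and cholangiocyte-like cells (20 and 15 cells) at 284 and 238 CPM.

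The members did not stand in 1 ratio across the low classes. T-like cells held 13.7 CPM (9.66 to 18.7) and 16.7 CPM (11.8 to 22.9) of H2-DMa, from 38 UMIs in each library, beside 26.6 and 28.2 CPM of Cd74. Hepatocyte-like cells held 3.42 CPM (2.34 to 4.83) and 3.45 CPM (2.16 to 5.22) of H2-DMa beside 38.3 and 46.8 CPM of Cd74. The T-like intervals of H2-DMa lay above the hepatocyte-like ones while those of Cd74 lay below. H2-Oa was 4.67 and 4.84 CPM in T-like cells against 0.535 and 0.783 CPM in hepatocyte-like cells, again with intervals apart. H2-DMa overlaps Brd2, a bromodomain gene read from the other strand, which stood at 90.2 and 94.1 CPM in T-like and 33.5 and 32.7 CPM in hepatocyte-like cells. Brd2 was also at 70 and 64.9 CPM in endothelial-like and 61.6 and 84.8 CPM in NK-like cells, where H2-DMa was 3.59 and 3.71 CPM and 4.11 and 12.1 CPM. H2-Oa overlaps the antisense transcript BC051537. Whether counting used strand is not stated in the sources used here, and the part of Brd2 and BC051537 in these values was not tested.

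Barcodes that carried markers of more than 1 class raised the level of T-like cells where they were kept, but not that of hepatocyte-like cells. The 19 and 22 barcodes with at least 3 T and at least 3 B markers held 3400 and 5518 CPM of the 4 genes. With up to 2 markers of another class allowed, T-like cells rose from 52.1 to 168 CPM with suffix 1 and from 52.3 to 272 CPM with suffix 2. With cells carrying markers of another class kept, hepatocyte-like cells went from 82.9 to 73.4 CPM with suffix 1 and from 92.1 to 85.6 CPM with suffix 2. Barcodes with markers of more than 1 class were left out of the reported classes, except where a gate that keeps them is named. No doublet caller was run.

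Between the libraries, 0 members passed 2-fold in either direction in B-like, conventional dendritic-like, Kupffer-like, endothelial-like or hepatocyte-like cells. Of all genes tested in these classes, 3.82%, 4.06%, 0.715%, 3.93% and 1.57% were at least 2-fold higher with suffix 2, and 2.48%, 5.54%, 1.38%, 4.03% and 1.93% were at least 2-fold lower. None of the 9 members tested in plasmacytoid dendritic-like cells passed (3.36% of genes higher, 2.06% lower), nor did either of the 2 tested in T-like cells (0.802% and 1.31%). The count of 0 changed with the gate: 2 members passed in Kupffer-like cells with no minimum on own-marker CPM, 2 in endothelial-like cells with at most 2 markers of another class and 1 in conventional dendritic-like cells with cells carrying such markers kept. The members of Kupffer-like cells leaned to suffix 2. The ratio of suffix 2 to suffix 1 was 1.5 for H2-Aa, 1.44 for H2-Ab1, 1.52 for H2-Eb1, 1.38 for Cd74, 1.28 for H2-DMa and 1.29 for H2-DMb1, and 0.997 for Ciita. The median of the 7 members tested was 1.38, beside 0.943 over the 8814 genes tested in Kupffer-like cells. The intervals of H2-Aa, H2-Ab1, H2-Eb1, Cd74, H2-DMa and H2-DMb1 did not overlap between the libraries in this class. With 1 sample behind each suffix, a ratio of this kind cannot be told apart from the spread between mice or between captures.

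Depth and cell make-up differed beside that ratio. Kupffer-like cells had a median of 8172 UMIs with suffix 1 and 6206 with suffix 2, and they were 1.95% and 6.5% of the kept cells. The part of these differences, and of the mitochondrial share, in the ratio was not tested. Among Kupffer-like cells with a UMI of Timd4, a phosphatidylserine receptor of long-lived resident Kupffer cells, the level was 2978 CPM (201 cells) and 4200 CPM (334 cells), so the lean was there as well. Kupffer-like cells without a Timd4 UMI stood at 1663 CPM (26 cells) and 3483 CPM (62 cells), with lower median depths of 2458 and 2418 UMIs. After thinning, H2-Aa was found in 40% (33.5 to 46.7) and 45.5% (40.5 to 50.6) of Kupffer-like cells, and these intervals overlapped.

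The ratios varied between the other classes. In plasmacytoid dendritic-like cells the ratio of suffix 2 to suffix 1 ran from 0.843 for Ciita to 1.57 for H2-Eb1 and 1.64 for H2-DMb1, with a median of 1.25 over the 9 members tested beside 0.995 over all genes tested. In B-like cells the ratio of suffix 2 to suffix 1 ran from 0.772 for H2-Oa to 1.34 for H2-DMa, with a median of 1.14 over the 10 members beside 1.02 over all genes tested. In conventional dendritic-like cells it ran from 0.747 for H2-DMb1 to 1.33 for H2-Oa, with a median of 0.885 beside 0.975. The direction for the 4 abundant genes was thus up with suffix 2 in B-like, Kupffer-like and plasmacytoid dendritic-like cells and down in conventional dendritic-like cells. Their sum was also up in monocyte-like cells, at 6588 and 8144 CPM (33 and 24 cells). It was down in macrophage-like cells, at 25817 and 17631 CPM (19 and 22 cells). The conventional dendritic-like direction turned where cells carrying markers of another class were kept, at 22208 and 25082 CPM. With at most 2 such markers it was still down, at 25828 and 25323 CPM. T-like cells held 52.1 and 52.3 CPM, equal within counting error, and the difference between classes in this ratio was not tested.

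**Figure D5:**
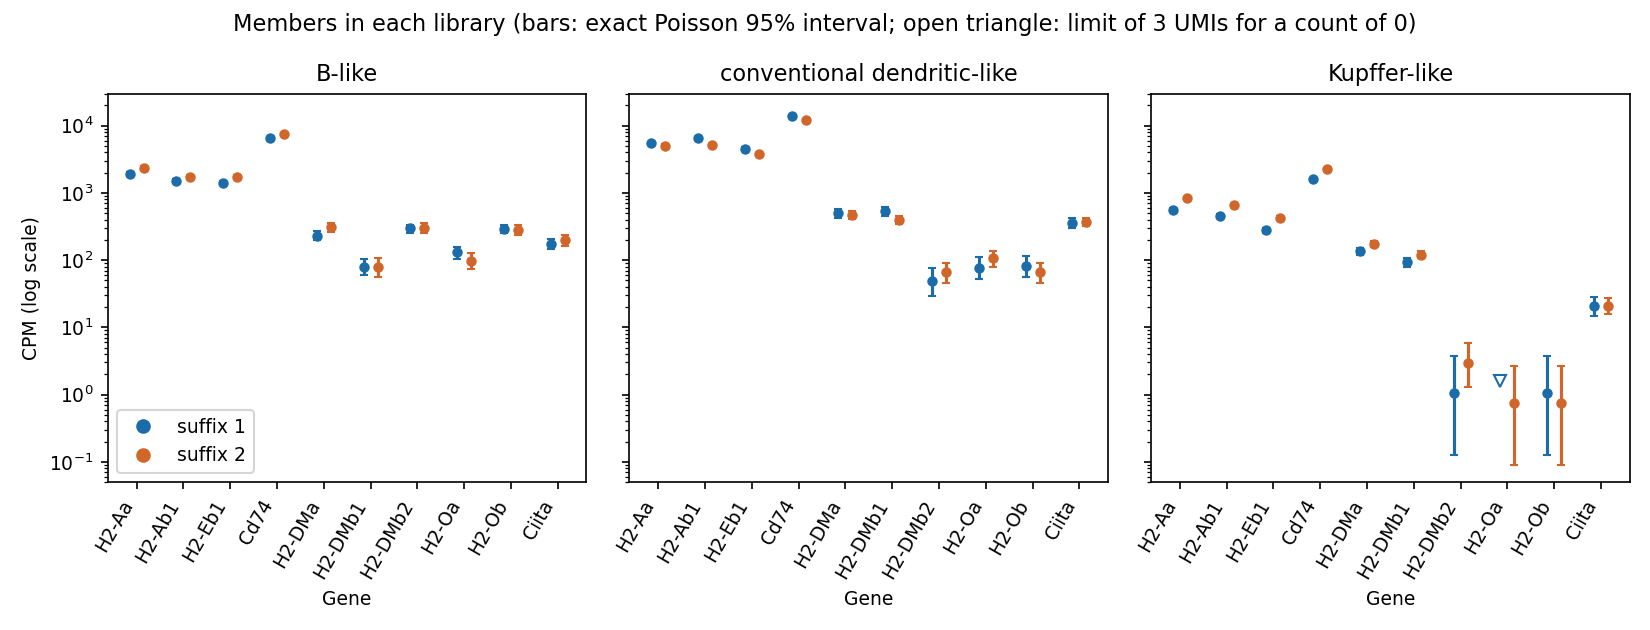
Level of each member in CPM (log axis) in B-like (left), conventional dendritic-like (middle) and Kupffer-like (right) cells, by library (colour), with exact Poisson 95% intervals as bars. In Kupffer-like cells H2-DMb2, H2-Oa and H2-Ob lie at or below 2.98 CPM, the open triangle being the limit for a count of 0, and the suffix 2 points of the 4 abundant genes lie above those of suffix 1.

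Dendritic-like cells could be split by the genes that mark their kinds. Those with a UMI of Xcr1, the chemokine receptor of cross-presenting type 1 dendritic cells, and none of Cd209a stood at 32147 CPM (19 cells) and 24019 CPM (23 cells). Those with a UMI of Cd209a, a lectin of type 2 dendritic cells, and none of Xcr1 stood at 38165 CPM (7 cells) and 32881 CPM (11 cells). The quartiles of single cells overlapped between these kinds, from 30104 to 48002 CPM against 25439 to 32770 CPM with suffix 1 and from 27700 to 44363 CPM against 20175 to 29538 CPM with suffix 2, so with so few cells no order is read from the sums. The summed H2-DMb2 level was 106 and 243 CPM in those with Cd209a, against 35.7 and 26.3 CPM in those with Xcr1. These sums rest on the same few cells, so no order is read from them either.

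Cells that hold the pathway were few. Conventional dendritic-like cells were 0.293% and 0.706% of the kept cells and gave 20.3% and 20.1% of all UMIs of the 4 genes. B-like cells gave 14.3% and 10.4%, Kupffer-like cells 9.46% and 16.6%, and hepatocyte-like cells, 52.5% and 49.4% of the kept cells, gave 1.32% and 0.877%. Cells left unnamed, which passed no gate or more than 1, gave 39.1% and 40.3%.

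The genes that make peptides and cut Cd74 were looked at next, from a pathway list of 45 genes of which 42 were in the matrix. Ctss, the protease that trims the last Cd74 fragment in antigen-presenting cells, stood at 1606 and 1448 CPM in Kupffer-like, 314.5 and 380 CPM in conventional dendritic-like, 292 and 285 CPM in B-like and 49.9 and 31.7 CPM in T-like cells. Lgmn, the asparaginyl endopeptidase, stood at 1775 and 1963 CPM in Kupffer-like cells and at 49.2 and 68.9 CPM in B-like cells. Ifi30, a lysosomal thiol reductase, stood at 437 and 478 CPM in Kupffer-like and 465 and 409 CPM in conventional dendritic-like cells. Lgmn stood at 28.1 and 63.6 CPM in conventional dendritic-like cells. Kupffer-like cells, the lowest of these 3 classes for the chains, thus held the most Ctss and Lgmn of the 3. Ctsb and Ctsd, lysosomal proteases, reached 4919 and 4822 CPM and 1206 and 1225 CPM in Kupffer-like cells.

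Of the pathway genes tested against T-like cells, 15 of 39 and 14 of 37 were at least 2-fold higher in B-like, 18 of 39 and 17 of 38 in conventional dendritic-like and 17 of 36 and 16 of 35 in Kupffer-like cells. The share of all genes past that size was 11.8% and 13.5%, 19.4% and 18.9%, and 21.7% and 21.2%. At least 2-fold lower were 7 and 7, 4 and 4, and 6 and 6 pathway genes, beside 9.47% and 8.7%, 9.17% and 10.1%, and 15.7% and 17.5% of all genes, so that the conventional dendritic-like and Kupffer-like counts were near that share. The lower genes included Ifng and Cd4 in each of these 3 classes and both libraries. Of the 7 promoter box factors, Rfx5 passed as higher in B-like cells with suffix 1 and Nfya in conventional dendritic-like cells with either suffix and in Kupffer-like cells with suffix 1, while Nfyb was lower in Kupffer-like cells with either suffix and Rfxank there with suffix 1. Rfx5, a subunit of the X box factor, stood at 20.5 and 9.57 CPM in B-like, 8.39 and 7.45 CPM in Kupffer-like and 6.11 and 7.48 CPM in T-like cells. Creb1, which binds the X box region, stood at 124 and 113 CPM, 131 and 110 CPM, and 140 and 146 CPM in the same classes. These factors were thus found in T-like cells too, where Ciita had 0 and 4 UMIs.

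March1, a ubiquitin ligase that removes class II from the surface, stood at 571 and 664 CPM in B-like, 356 and 371.5 CPM in Kupffer-like and 222.5 and 330 CPM in conventional dendritic-like cells, against 0.719 and 0.88 CPM in T-like cells. Its level in B-like cells was above that in conventional dendritic-like cells, opposite to the chains. H2-Eb2, a minor class II beta gene, was found in B-like cells at 28.7 and 42.1 CPM and in conventional dendritic-like cells at 15.3 and 27 CPM, with 0 UMIs in Kupffer-like and T-like cells. Plasmacytoid dendritic-like cells carried Cd4, the coreceptor that binds class II, at 261 and 205 CPM and Lag3, an inhibitory class II receptor, at 81.9 and 80.8 CPM.

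In conventional dendritic-like cells 3 of the 36 pathway genes tested, Cd83, Cd80 and Cd40, were at least 2-fold lower with suffix 2, as were 5.54% of all genes tested. The costimulatory genes Cd86 (197 and 185 CPM) and Icosl (56.3 and 36.6 CPM) did not pass that size. Cd83, a maturation marker that steadies surface class II, stood at 312 CPM with suffix 1 and 152 CPM with suffix 2. Cd80 stood at 74.2 and 21.2 CPM and Cd40 at 61.4 and 19.3 CPM. The top cell of each gene, picked gene by gene, gave 24.6% of the suffix 1 UMIs for Cd83, 37.9% for Cd80 and 33.3% for Cd40. A UMI was held by 19, 6 and 6 of 34 cells. Without the top cell of each gene the suffix 1 levels were 244, 49.6 and 42.4 CPM, and Cd83 was then less than 2-fold above its suffix 2 level.

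MHC class I genes, which show peptides from inside the cell on most cell types, did not follow the class II order. H2-K1, a class I heavy chain, stood at 997 and 1160 CPM in B-like, 954 and 902 CPM in conventional dendritic-like, 1160 and 1186 CPM in Kupffer-like, 1121 and 973 CPM in endothelial-like and 772 and 886 CPM in hepatocyte-like cells. T-like cells held 2032 and 2160 CPM. B2m, the light chain, ran from 889 to 2247 CPM over the same 6 classes. Nlrc5, the class I counterpart of Ciita, stood at 164 and 171 CPM in T-like, 138 and 92.6 CPM in conventional dendritic-like, 51.4 and 32 CPM in Kupffer-like and 30 and 32.5 CPM in B-like cells, so that T-like cells, with 0 and 4 UMIs of Ciita, held the most of these 4 classes.

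The genes whose pattern was most like the mean log2(CPM + 1) of the 4 abundant members were ranked over 22 profiles, which are 11 classes of at least 20 cells in each library. Among 5093 genes that reached 100 CPM in any profile, the other members ranked 5 (Ciita, r = 0.974), 6 (H2-DMb1, r = 0.963), 10 (H2-DMa, r = 0.918), 31 (H2-DMb2, r = 0.807), 71 (H2-Oa, r = 0.727) and 426 (H2-Ob, r = 0.534). The non-members most alike were Fgd2 (r = 0.958), Cd180 (r = 0.955), Pkib (r = 0.94), Erp29 (r = 0.913) and Pld4 (r = 0.896), followed by Ly86, Rnase6, Rab39, Ifi30 and Rassf4 down to r = 0.855. Profiles of 1 class from both libraries and profiles of 1 library share their source, so these values are a description. DO and H2-DMb2 thus followed the chains less closely than DM alpha, H2-DMb1 and Ciita did in this ranking.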

How the data were processed

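One joined matrix of 10x 3′ v3.1 counts was used. The authors' deposited values are raw UMI counts per gene and barcode, made with Cell Ranger 7.1.0, bcl2fastq 2.20.0 and STAR 2.7.2a on mm10 per the submitters' processing notes. The matrix holds 60048646 UMIs with suffix 1 and 52355243 with suffix 2. No label maps a suffix to a sample, so both libraries were left without a genotype and no test between them was possible.

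Computed here, with Python 3.11.15, numpy 2.4.6, scipy 1.17.1 and pandas 2.3.3, were the cell filters (500 UMIs, 200 genes, 25% mitochondrial), the marker gates, UMIs summed per class and library as CPM with exact Poisson 95% intervals, shares with exact binomial 95% intervals, thinning to 1000 UMIs and 2-fold counts with 3 UMIs added. Markers found in at least 20% of a class's own first-pass cells did not exclude cells from it. A count of 0 was taken to allow 3 UMIs. Intervals cover counting error only. Free RNA was not removed and no doublet caller was run. Named genes were the 10 members, a pathway list and the 10 non-members most like the chains. The members and lists were chosen with earlier results of these data known, and gate thresholds were set after seeing the data. The counting steps were tested on simulated data.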

Additional observations from a re-analysis of the deposited data

Results flagged for a closer look

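Class II signal was found in barcodes that no comparison used. Barcodes over the mitochondrial limit held 424 CPM of H2-Aa, H2-Ab1, H2-Eb1 and Cd74 with suffix 1 and 290.5 CPM with suffix 2, above the T-like level of 52.1 and 52.3 CPM. Kept cells that entered no class held 965.4 CPM with suffix 1 and 2375 CPM with suffix 2, from 4035 and 1583 cells. The reported classes hold none of these barcodes. With a mitochondrial limit of 50%, part of the first kind entered a class, giving 8334 and 5947 hepatocyte-like cells in place of 6095 and 3008, and 190 and 168 B-like cells in place of 184 and 153. With cells carrying markers of another class kept, part of the second kind did, B-like cells then numbering 225 and 200.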

How the results depend on the processing

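Conventional dendritic-like, then B-like, then Kupffer-like cells kept the top 3 places among the 5 classes in both libraries under every alternative that gives levels. Of 1100 values of single members under the alternatives, 861 stayed within the counting interval of the reported value. Each summed level below is of H2-Aa, H2-Ab1, H2-Eb1 and Cd74, in CPM with suffix 1 and suffix 2 unless 1 suffix is named, and a count is of members at least 2-fold over T-like cells unless stated. The causes were not tested.

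With a mitochondrial limit of 10%, the level was 31593 and 27950 in conventional dendritic-like, 3024 and 4404 in Kupffer-like and 101.6 and 107.8 in hepatocyte-like cells, and with suffix 1 the count was 2 in endothelial-like and 2 in hepatocyte-like cells. With a limit of 50%, it was 12426 in B-like (suffix 2), 29107 and 24742 in conventional dendritic-like and 2786 and 3989 in Kupffer-like cells. With at least 1000 UMIs per cell, hepatocyte-like cells held 65.57 and 72.27, with a count of 0 for suffix 2. With 1 more own marker, conventional dendritic-like cells held 32708 (suffix 1).

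With cells carrying markers of another class kept, the level was 9799 and 10038 in B-like, 22208 and 25082 in conventional dendritic-like, 1769 and 3218 in Kupffer-like, 1093 and 1307 in endothelial-like and 73.39 in hepatocyte-like (suffix 1) cells. T-like cells then held 640.5 and 1212. The count was 5 and 5 in Kupffer-like, 1 and 0 in endothelial-like and 0 in hepatocyte-like cells (suffix 2), and 1 member passed 2-fold between the libraries in conventional dendritic-like cells. Without the 5% of cells with the most UMIs, it was 11701 and 13859 in B-like, 29188 and 26895 in conventional dendritic-like, 4048 in Kupffer-like (suffix 2) and 104.3 and 118.2 in hepatocyte-like cells, with counts of 2 and 0 in endothelial-like and 1 and 2 in hepatocyte-like cells.

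As a mean over cells, it was 11735 and 13840 in B-like, 28161 and 27005 in conventional dendritic-like, 2743 and 3836 in Kupffer-like and 109.6 and 151.8 in hepatocyte-like cells. With the T-like level subtracted, endothelial-like cells stood at -0.01551 and -4.146 and hepatocyte-like cells at 30.77 and 39.72. Counts of folds were not run for these 2 settings. Thinned to 500 UMIs, the share of cells with a UMI was 62.56% and 72.98% in Kupffer-like and 5.168% in hepatocyte-like (suffix 1) cells.

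The next 2 alternatives were chosen after seeing the data. With at most 2 markers of another class, the level was 11003 and 12271 in B-like, 25828 and 25323 in conventional dendritic-like, 3144 and 4033 in Kupffer-like, 128.8 in endothelial-like (suffix 2) and 73.39 in hepatocyte-like (suffix 1) cells, the count was 0 with suffix 2 in endothelial-like and hepatocyte-like cells, and 2 members passed 2-fold between the libraries in endothelial-like cells. With no minimum on own-marker CPM, Kupffer-like cells held 2064 and 3912, and 2 members passed 2-fold between the libraries. No paired analysis was possible because each group has 1 sample and neither library could be tied to a group. Conventional dendritic-like values rest on 34 and 43 cells, and depth limits endothelial-like cells, where a count of 0 allows up to 5.39 and 5.56 CPM.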
